A study of Rattus norvegicus with 6 samples.

Results

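The genes described here are 41 interferon response genes and CXCR3 chemokines, among 35228 gene names on the array. They were taken as the listed symbols found among the non-control probes, and all 41 were on the array. Of these, 32 are targets of type I interferon and 9 are targets of interferon gamma, the latter including the CXCR3 ligands Cxcl9, Cxcl10 and Cxcl11. Expression was measured on one-colour Agilent arrays in rBMSCs, the stromal cells of rat bone marrow, which were isolated from tibias and cultured for 7 days. Of the 6 cultures, 3 grew on a Ta-modified Ti surface (titanium carrying tantalum, called Ta below) and 3 on a simple Ti surface (called Ti). The labels name no drug, cytokine or gene alteration, and give neither the strain, age and sex of the rats nor whether animals were pooled. The treatment text of the Ti samples names the Ta surface too, so the groups follow the titles and the culture field. The series' text describes independent experiments within each group, and p-values measure the spread between these cultures.

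Interferons are secreted signals that put cells into an antiviral state. Type I interferons act through the receptor chains Ifnar1 and Ifnar2 and the kinases Jak1 and Tyk2, and lead to a complex with Stat2 and Irf9 that binds the interferon-stimulated response element (ISRE). Interferon gamma acts through Ifngr1 and Ifngr2 and leads to transcription from the gamma-activated sequence (GAS), which switches on Irf1, the guanylate-binding proteins, the immunoproteasome and the chemokines that draw CXCR3-bearing T cells.

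The sequences just before the start of the gene show which of these elements the members carry. The 250 bases before the annotated start are given, from RefSeq and its assembly GRCr8, 5′ to 3′ on the strand of the gene. Capitals mark matches, on either strand, to the ISRE core (GAAA, any 2 bases, GAAA) or the GAS letters (TTC, any 3 bases, GAA). The first pair holds Isg20, the one member that passed the test, and Ifit3, the tested member with the largest positive difference. Irf1 and Cxcl10 follow as the leading interferon gamma targets by size, Bst2 as a promoter with both kinds of match, and Oas1b and Oas1i as close relatives whose arrays differed in opposite directions.
Isg20, chr1:142239809-142240058, plus strand: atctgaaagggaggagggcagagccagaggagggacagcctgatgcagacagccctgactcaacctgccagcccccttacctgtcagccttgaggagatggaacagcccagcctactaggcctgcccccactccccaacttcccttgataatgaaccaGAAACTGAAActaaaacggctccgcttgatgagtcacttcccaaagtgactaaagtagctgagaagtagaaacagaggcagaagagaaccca
Ifit3, chr1:241527076-241527325, plus strand: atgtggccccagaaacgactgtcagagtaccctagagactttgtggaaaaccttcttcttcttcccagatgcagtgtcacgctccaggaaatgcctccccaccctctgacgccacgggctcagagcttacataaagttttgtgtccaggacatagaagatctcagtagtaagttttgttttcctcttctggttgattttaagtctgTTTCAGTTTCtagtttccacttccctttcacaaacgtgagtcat
Irf1, chr10:38417685-38417934, plus strand: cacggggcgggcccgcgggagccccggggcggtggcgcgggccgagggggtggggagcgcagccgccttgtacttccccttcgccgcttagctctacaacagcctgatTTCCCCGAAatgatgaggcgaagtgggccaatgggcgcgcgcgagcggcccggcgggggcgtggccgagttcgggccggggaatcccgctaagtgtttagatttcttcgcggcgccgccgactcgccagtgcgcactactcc
Cxcl10, chr14:15988816-15989065, plus strand: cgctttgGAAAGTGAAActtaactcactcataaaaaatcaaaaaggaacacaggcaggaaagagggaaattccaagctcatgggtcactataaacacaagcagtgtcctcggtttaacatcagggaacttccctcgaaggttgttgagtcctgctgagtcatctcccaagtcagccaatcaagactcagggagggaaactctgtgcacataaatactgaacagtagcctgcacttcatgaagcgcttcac
Bst2, chr16:18254968-18255217, minus strand: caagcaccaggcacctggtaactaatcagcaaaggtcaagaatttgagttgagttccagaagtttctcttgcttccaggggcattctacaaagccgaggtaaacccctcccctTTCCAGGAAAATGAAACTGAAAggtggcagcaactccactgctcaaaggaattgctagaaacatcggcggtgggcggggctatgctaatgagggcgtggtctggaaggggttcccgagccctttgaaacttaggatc
Oas1b, chr12:41395853-41396102, minus strand: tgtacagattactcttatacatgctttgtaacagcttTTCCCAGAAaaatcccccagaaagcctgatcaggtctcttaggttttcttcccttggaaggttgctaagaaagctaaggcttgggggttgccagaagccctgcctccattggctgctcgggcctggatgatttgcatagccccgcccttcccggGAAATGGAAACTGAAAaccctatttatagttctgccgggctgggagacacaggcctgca
Oas1i, chr12:41284976-41285225, plus strand: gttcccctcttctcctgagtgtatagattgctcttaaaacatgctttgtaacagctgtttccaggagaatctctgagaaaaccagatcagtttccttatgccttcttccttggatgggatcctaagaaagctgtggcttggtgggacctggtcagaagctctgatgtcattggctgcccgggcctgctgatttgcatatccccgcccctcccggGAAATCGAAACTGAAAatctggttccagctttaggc

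A promoter window of 300 bases, 250 before and 50 after the start, was found in the table for 32 of the 41 members, and Ifit1bl had 2 such windows, both of which were searched. The ISRE core occurred in the windows of 22 of these 32 members (68.8%) and in 3.92% of all 33469 windows. It was found in 17 of 23 type I targets and in 5 of 9 interferon gamma targets. The 28 matches that began before the start lay 4 to 243 bases ahead of it, counted to the match's leftmost base, with a median of 64. In Oas1a, Oas1b, Oas1i and Bst2 a pair of overlapping ISRE matches formed 1 longer run, joined in Bst2 to a GAS match, as the capitals above show for the last 3 of these. GAS letters occurred in 10 of the 32 members (31.2%) and in 8.87% of all windows, including Irf1 at 142 bases and Cxcl11 at 250 bases before the start. The NF-kB letters searched (GGGA, any base, TTTCC) were found in Gbp5 and Tap1, 2 of 32 members (6.25%), and in 0.362% of all windows. The windows of Tap1 and Psmb9 overlap, since these genes start head to head. A match describes letters only. The windows with an ISRE core were 4 of the 6 for members whose Ta arrays all lay above the Ti arrays, 2 of the 3 for members in the opposite order, 13 of 17 for members whose groups overlapped and 3 of 6 for members not tested.

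**Figure D1:**
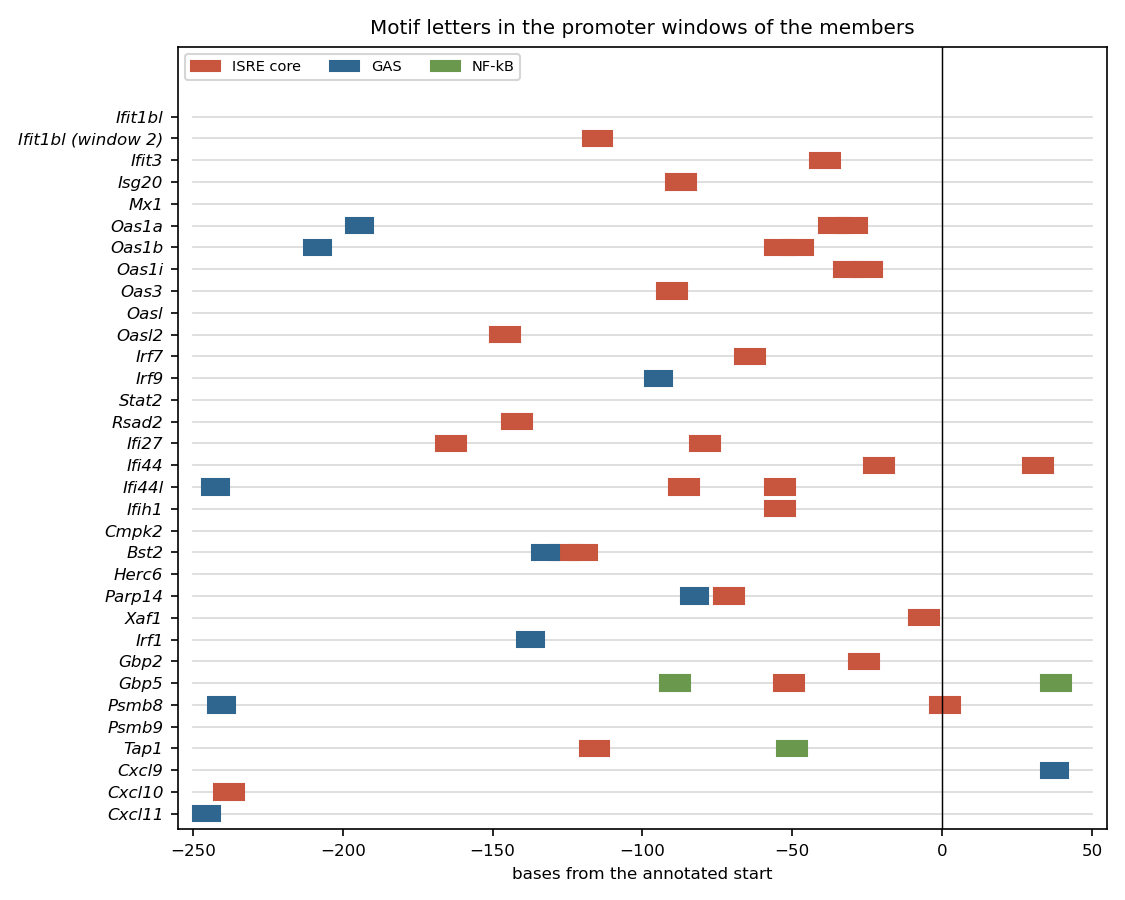
Positions of the ISRE core, GAS and NF-kB letters in the promoter windows of 32 members, in bases from the annotated start on the horizontal axis, with 1 line per window. The ISRE matches lie 64 bases before the start at the median, and that of Cxcl10 lies 243 bases before it.

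The share of spots well above background, as the scanner software calls a spot clearly brighter than its surroundings, was 62.7% to 65.9% of 58717 per array, controls aside. The arrays shared 1 slide and 1 scan. Its row 1 held every Ta array and Ti replicate 1, and its row 2 the other Ti arrays. Within row 1 only Ti replicate 1 stands against the Ta arrays, so values that hold row constant rest on that array. Ta replicate 1 was nearer to the other Ta arrays for 16 of the 33 tested members and nearer to the Ti mean for 17. Over all tested genes 49% were nearer to the other Ta arrays. Genes with little difference between the groups fall to either side, so these shares do not place the array. The stromal markers were present at summed linear signals of 307000 to 328000 on the Ta arrays and 316000 to 333000 on the Ti arrays, with 12 of 13 tested and Lepr not well above background. Macrophage markers were present as well, 15 of 17 tested, at 35100 to 115000 on Ta and 137000 to 188000 on Ti. Marco was not well above background. None (0 of 15) was called by limma. At an unadjusted p under 0.05 there were 2 higher and 9 lower, beside 16.7% higher and 13.2% lower among all genes. The brightest probe in the sum was that of Lyz2, except on Ta replicate 3. It read 16.01, 14.27 and 12.74 on Ta and 16.85, 16.37 and 16.94 on Ti. Cd14 and Cx3cr1 had every Ta array above every Ti array (13.3%, against 19.5% of all genes). In 8 markers every Ta array lay below (53.3%, against 16.3%), and Cd68, Csf1r, Cd163, Adgre1 and Itgam overlapped. Neutrophil markers summed to 304 to 629 on Ta and 121 to 180 on Ti, with 4 of 8 tested. Of these 4, S100a8 and Camp were called higher, and Csf3r leaned lower at -0.88 ± 0.44 with overlapping arrays. S100a9, Elane, Ltf and Cxcr2 were not well above background. Mast cell markers summed to 809 to 892 on Ta and 1340 to 2230 on Ti, with 5 of 7 tested called lower. Of these, Cma1 and Mcpt1l1 were well above background on the 3 Ti arrays and no Ta array (0 of 3), and Cpa3 on 1 Ta array. These 3 genes were thus tested through the group in which they were higher. Hdc went the other way, with every Ta array above every Ti array. Of the stromal markers, Thy1 and Cxcl12 were called higher, 2 of 12. Over all genes 2.67% were called higher and 1.45% lower. In whole cultures, fewer cells of a type and less RNA per cell cannot be told apart.

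Of the 41 members, 31 were well above background on all 6 arrays and 33 on at least 3, which was the condition for testing. The tested members comprised 26 of 32 type I targets and 7 of 9 interferon gamma targets. All levels are log2 processed signals scaled to the 75th percentile of each array, and they compare arrays for 1 probe, not probes with each other. Differences are Ta minus Ti, with the moderated standard error of limma (SE), and a gene was called at a Benjamini-Hochberg adjusted p under 0.05 over all 19755 genes tested.

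A single member was called. Isg20, an exonuclease that degrades RNA, fell on Ta, and none (0) of the 33 tested members rose. The 1 call is 3.03% of the members, while 4.12% of all genes tested were called (2.67% higher and 1.45% lower on Ta). The members' differences ran from -0.80 to 0.73, with a median of 0.08 beside 0.03 for all genes. The size of the difference was under 0.5 for 29 of 33 members and reached 1, a 2-fold change, for none (0 of 33), while 5.18% of all genes were at least 2-fold apart. For 27 members the 95% interval of the difference lay within 1 on either side of 0. At an unadjusted p under 0.05 there were 9 members, 7 higher and 2 lower, which is 27.3% of those tested, against 29.9% of all genes.

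The 6 arrays separated the groups for 12 of the 33 members (36.4%), against 35.8% of all genes. In 9 of these every Ta array lay above every Ti array (27.3% of members, 19.5% of all genes): Ifit3, Isg15, Oas1b, Irf7, Stat2, Usp18, Parp14, Rtp4 and Irf1. In 3 every Ta array lay below (9.09% of members, 16.3% of all genes): Isg20, Oas1i and Cmpk2. The number of members called was 2 of 33 with quantile scaling (3.89% of all genes), 2 with median scaling (3.95%), 3 with trend and robust settings of the test (10.5%) and 5 with the normexp background correction (13.1%). It was 15 with array weights (51.9%), a fit that leaned on Ta replicate 2 (weight 7.3) and Ti replicate 3 (2.75), beside 0.318 to 0.734 for the others. It was 1 with the mean of a gene's probes (4.06%) or every probe on its own (4.31%), 2 of 31 among probes well above background on every array (6.56%), and 0 with the replicate number as a block (0.0405%). Without Ta replicate 1 it was 5 (16.3%), and without Ti replicate 2 it was 1 (8.09%). Isg20 was in each of these sets with a call except the last, which held Cmpk2. The spread within groups, at a median SD of 0.17 over the members, was close to the 0.16 of all genes.

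**Figure D2:**
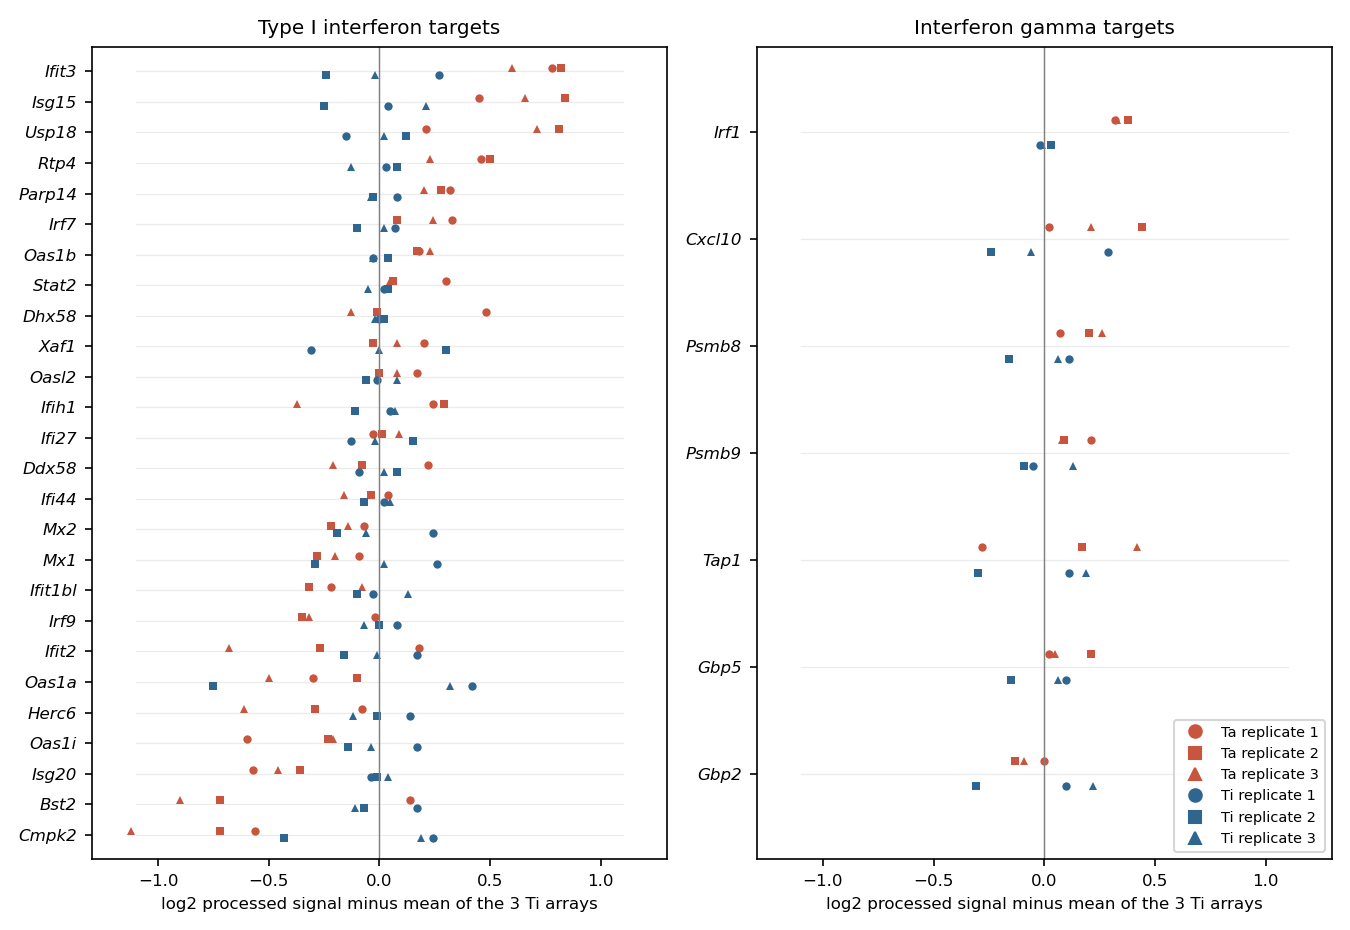
Log2 processed signal of the 33 tested members on each array, as the distance from the mean of the 3 Ti arrays (horizontal axis), with Ta arrays in red, Ti arrays in blue and the replicate given by the marker. The type I targets on the left run from Ifit3 at 0.73 to Cmpk2 at -0.80, and among the interferon gamma targets on the right the groups of Irf1 stand apart.

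Among the type I targets, 1 of 26 was called, and the differences were split evenly, 13 positive and 13 negative, with a median of 0. The direct antiviral effectors showed both signs. Isg20 measured 8.07, 8.28 and 8.18 on Ta replicates 1, 2 and 3 and 8.60, 8.63 and 8.68 on Ti replicates 1, 2 and 3. Every Ta array was below every Ti array. The difference was -0.46 ± 0.09 (SE, n = 3 a group, adjusted p = 0.0473, limma), or 1.38-fold lower on Ta. Leaving out Ta replicate 1 kept the call (adjusted p = 0.0359), and leaving out any other single array ended it, with an adjusted p from 0.0522 without Ti replicate 2 to 0.173 without Ti replicate 3. The adjusted p was 0.215 with slide row as a block, where the difference was -0.43.

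Cmpk2, a mitochondrial nucleotide kinase that sits beside the antiviral gene Rsad2, had the largest difference of any tested member. It read 5.61, 5.45 and 5.05 on the Ta arrays and 6.41, 5.74 and 6.36 on the Ti arrays, in replicate order. The groups did not overlap, and Ti replicate 2 lay nearest to the Ta arrays. The difference of -0.80 ± 0.23 did not pass the test (adjusted p = 0.0865), and it was called when Ti replicate 2 was left out. Rsad2 itself, the gene of viperin, was well above background on 1 Ti array only: its brighter probe gave 1.68, 3.19 and 2.48 on Ta and 4.14, 3.01 and 3.45 on Ti.

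Ifit3, which belongs to the family of proteins that bind viral RNA, showed the largest positive difference among the tested members. Its signal was 4.47, 4.51 and 4.29 on the Ta arrays and 3.96, 3.45 and 3.67 on the Ti arrays. All Ta arrays were higher, but the probe was dim and well above background on the 3 Ta arrays and on 1 Ti array, so it entered the test through the group in which it was higher. The difference was 0.73 ± 0.15 (adjusted p = 0.0513), and it passed the threshold under quantile scaling (adjusted p = 0.0466) and median scaling (adjusted p = 0.0494). Other Ifit genes differed less. Ifit2 lay between 7.64 and 8.50 on Ta and between 8.16 and 8.49 on Ti, at a difference of -0.25 ± 0.22, and Ifit1bl differed by -0.21 ± 0.10. Ifit1 was well above background on no array (0 of 6). Genes of this family resemble each other closely, as do the Oas1 copies, so signal on these probes may be shared between relatives and is uncertain.

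The oligoadenylate synthetases, which sense double-stranded RNA and activate the RNA-cleaving enzyme RNase L, did not move as a group. Oas1b measured 13.70, 13.69 and 13.75 on Ta and 13.49, 13.56 and 13.49 on Ti, a small and even separation of 0.19 ± 0.07 (adjusted p = 0.14). Oas1i went the other way, with 4.16, 4.53 and 4.55 on Ta and 4.93, 4.62 and 4.72 on Ti (-0.34 ± 0.14, adjusted p = 0.172). Neither passed the test. Oas1a overlapped at -0.30 ± 0.32, with a second, dimmer probe well above background on only some arrays, and Oasl2 differed by 0.08 ± 0.09. Oas2 and Oasl were well above background on no array (0 of 6), and Oas3 on 1 Ta array, at 4.28.

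The Mx proteins, dynamin-like GTPases that trap viral components, overlapped between the groups. Mx1 ran from 8.53 to 8.72 on Ta and from 8.52 to 9.07 on Ti (-0.19 ± 0.15). Mx2 ran from 13.06 to 13.21 on Ta and from 13.09 to 13.52 on Ti (-0.14 ± 0.13), on the brighter of 2 probes, since the other stood clear of background on no array (0 of 6). Bst2, or tetherin, which holds budding virus at the cell surface, gave 6.01, 5.15 and 4.97 on Ta and 6.04, 5.80 and 5.76 on Ti. Its Ta replicate 1 fell within the Ti range, and the difference of -0.49 ± 0.27 did not pass (adjusted p = 0.284), although Bst2 was called when that array was left out.

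The ISG15 system, in which the ubiquitin-like protein Isg15 is attached to other proteins and removed again, held Isg15 and Usp18, 2 of the 12 members with separated groups. Isg15 measured 7.34, 7.73 and 7.55 on Ta and 6.93, 6.64 and 7.10 on Ti. Every Ta array was above every Ti array, and the difference was 0.64 ± 0.16 (adjusted p = 0.0669). Usp18, the protease that removes Isg15 and also restrains the type I receptor, gave 7.93, 8.53 and 8.43 on Ta and 7.57, 7.84 and 7.74 on Ti. Its groups were separated too, at 0.58 ± 0.18 (adjusted p = 0.0955), with Ta replicate 1 nearest to Ti. Of the enzymes, the conjugating enzyme Ube2l6, no member of the list, differed by 0.86 ± 0.20 (adjusted p = 0.0647), the activating enzyme Uba7 by 0.10 ± 0.27 and the ligase Herc6, a member, by -0.33 ± 0.15 with overlapping arrays. None of these 5 genes passed the test. Without Ta replicate 1, Isg15 and Usp18 were both called.

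The 60-base probes behind the main readings show what each measured. They are given as the array design has them, 5′ to 3′, with the rn4 coordinates of the file headers. Isg20 is the called member, Isg15 and Ifit3 lead the positive differences, and Cxcl9 and Cxcl11 are the chemokines without a detectable signal. Each stretch can be read through without a stop codon in at least 1 frame. That holds for most of the members' probes, and it does not show that a probe lies in coding sequence.
Isg20, chr1:134637559.0-134637618.0, plus strand: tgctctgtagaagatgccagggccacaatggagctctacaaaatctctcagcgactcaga
Isg15, chr5:173034674.0-173034733.0, minus strand: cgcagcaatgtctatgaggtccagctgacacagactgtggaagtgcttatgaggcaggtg
Ifit3, chr1:238575730.0-238575789.0, plus strand: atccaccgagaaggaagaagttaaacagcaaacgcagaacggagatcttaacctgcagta
Cxcl9, chr14:17288831.0-17288890.0, plus strand: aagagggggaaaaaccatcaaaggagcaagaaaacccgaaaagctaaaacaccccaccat
Cxcl11, chr14:17252192.0-17252251.0, plus strand: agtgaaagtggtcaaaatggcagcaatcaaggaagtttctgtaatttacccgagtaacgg

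The transcription factors of the type I response differed little. Irf7, the amplifier of type I interferon production, gave 8.83, 8.58 and 8.74 on Ta and 8.57, 8.40 and 8.52 on Ti. Its Ta arrays were all above, by a narrow margin, at 0.22 ± 0.10 (adjusted p = 0.195). Stat2 measured 11.42, 11.18 and 11.17 on Ta and 11.14, 11.16 and 11.07 on Ti, with Ta replicate 1 apart from the other Ta arrays and a difference of 0.14 ± 0.10 (adjusted p = 0.391). Irf9, the DNA-binding subunit of the complex, leaned the other way, with 10.13, 9.80 and 9.83 on Ta and 10.23, 10.15 and 10.08 on Ti (-0.23 ± 0.11, adjusted p = 0.225). The groups of Irf9 overlapped through Ta replicate 1, and its second probe differed by -0.22. None of the 3 passed the test.

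Parp14, an ADP-ribosyltransferase, and Rtp4, a chaperone of receptor transport, separated the groups without passing. Rtp4 gave 7.00, 7.04 and 6.77 on Ta and 6.57, 6.62 and 6.41 on Ti, at 0.40 ± 0.11 (adjusted p = 0.0794). Parp14 lay between 10.95 and 11.07 on Ta and between 10.71 and 10.83 on Ti, at 0.26 ± 0.08 (adjusted p = 0.0949). The cytosolic sensors of viral RNA differed by 0.11 or less in size: Ddx58 (RIG-I) differed by -0.03 ± 0.13, Ifih1 (MDA5) by 0.05 ± 0.19 and Dhx58 (LGP2) by 0.11 ± 0.16. Ifi27, Ifi44 and Xaf1 also overlapped, with differences between -0.05 and 0.09, and Ifi44l was well above background on no array (0 of 6). The signs of Ifi27 and Ifih1 changed in at least 1 of the other scalings.

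Among the interferon gamma targets, none (0 of 7) was called, Irf1 alone (1 of 7) had an unadjusted p under 0.05, 6 differences were positive and 1 negative, and the median was 0.13. That median was 0.23 without Ta replicate 1, 0.20 without Ti replicate 3 and 0 with slide row as a block. Irf1, the transcription factor with the GAS match shown above, had evenly grouped arrays: 11.59, 11.65 and 11.60 on Ta and 11.25, 11.30 and 11.26 on Ti. All Ta arrays lay above all Ti arrays, with SDs of 0.04 and 0.03. The difference of 0.34 ± 0.07 (95% interval 0.17 to 0.52, adjusted p = 0.0543) missed the threshold, and it was called without Ta replicate 1. The guanylate-binding proteins, GTPases that attack intracellular pathogens, overlapped, with Gbp2 at -0.08 ± 0.15 and Gbp5 at 0.09 ± 0.10.

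The immunoproteasome subunits Psmb8 and Psmb9, which cut peptides for MHC class I, overlapped at 0.17 ± 0.11 and 0.13 ± 0.09. The peptide transporter Tap1 did so at 0.11 ± 0.21. The second probe of Psmb8 differed by -0.11 and that of Tap1 by 0.34, so the probes of Psmb8 disagreed in sign. Neither sign was backed by a call.

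Of the CXCR3 ligands, Cxcl10 alone was above background. It read 6.10, 6.52 and 6.29 on Ta and 6.37, 5.84 and 6.02 on Ti, with Ti replicate 1 inside the Ta range. The difference of 0.23 ± 0.17 (95% interval -0.19 to 0.65, adjusted p = 0.412) did not pass, and it was -0.06 with slide row as a block. Cxcl9 gave 2.52, 3.01 and 1.64 on Ta and 1.45, 1.79 and 2.46 on Ti, and Cxcl11 gave 1.50, 1.26 and 1.55 on Ta and 1.27, 1.68 and 1.57 on Ti. Both were well above background on no array (0 of 6), while the lowest signal so classed was 2.48 to 2.94 over the arrays. A difference in Cxcl9 or Cxcl11 was not detectable on these arrays. The receptor Cxcr3 was likewise well above background on no array (0 of 6).

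**Figure D3:**
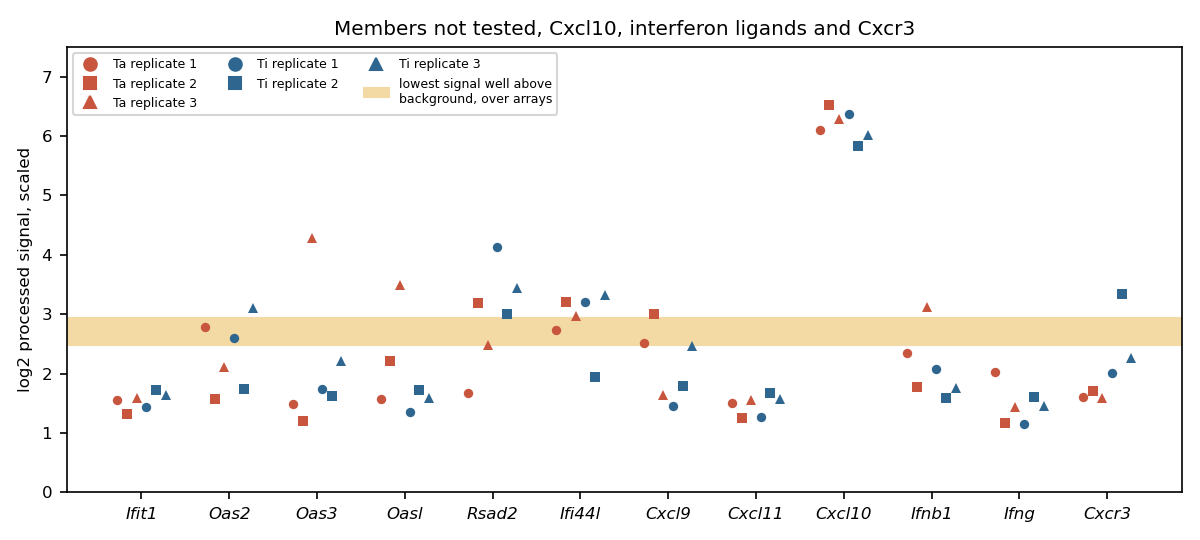
Scaled log2 processed signal on each array (vertical axis) for the 8 members not tested, for Cxcl10, for the ligands Ifnb1 and Ifng and for the receptor Cxcr3. The band runs from 2.48 to 2.94, the lowest signals classed as well above background on the 6 arrays, and Cxcl10 stands above it on every array.

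**Figure D4:**
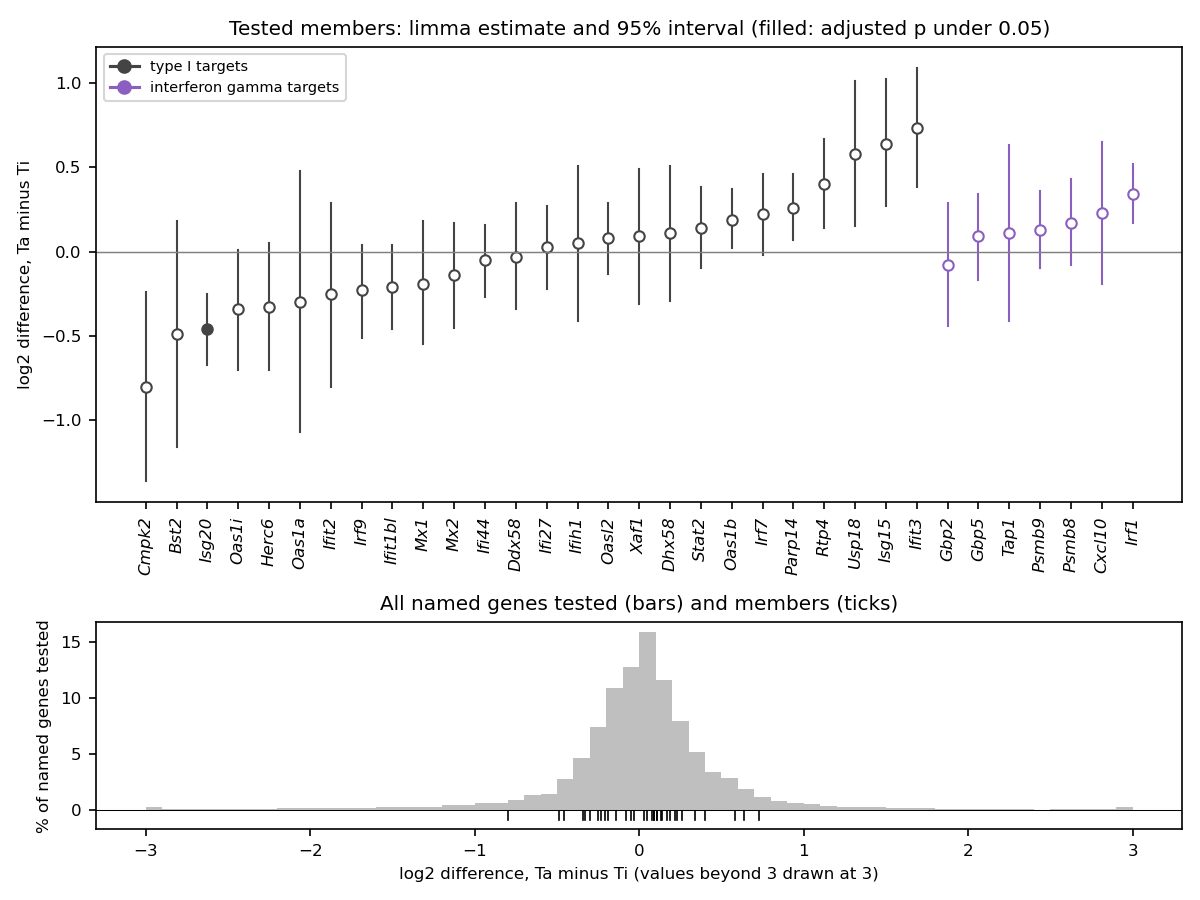
Upper panel: log2 difference (Ta minus Ti) of each tested member with its 95% interval, filled where the adjusted p was under 0.05. Lower panel: the differences of all tested genes that have a name, as percentages per bin, with the members as ticks. Isg20 at -0.46 is the single filled point, and the ticks lie between -0.80 and 0.73.

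The 14 members with a negative difference were also read against the macrophage markers, whose sum was 115000, 58700 and 35100 on Ta replicates 1, 2 and 3. Lyz2 weighed most in that sum on replicates 1 and 2, and all tested markers but Cd14 and Cx3cr1 fell in this order. Cmpk2, Bst2, Herc6, Ifit2, Ddx58 and Ifi44, 6 of these 14 members (42.9%), had Ta arrays in that same order from high to low. So did 36.2% of all genes with a negative difference. Ddx58 and Ifi44 differed by only -0.03 and -0.05. A second probe of Ifi44 differed by 0.09, with Ta arrays at 8.64, 8.66 and 8.80. Isg20 did not follow the order of the markers, with its lowest Ta value on replicate 1. Of all 33 members 10 followed the order (30.3%, against 21.6% of all genes) and 4 the opposite one (12.1%, against 27.3%). Markers of plasmacytoid dendritic cells, which are known for producing type I interferon, summed to 3640 to 4100 on Ta and 3540 to 4070 on Ti. Of 8 such markers 5 were tested and 0 called (1 higher and 2 lower at an unadjusted p under 0.05). Ly6d and Spib were not well above background. The sum came mainly from the probe of Tcf4, at a mean of 11.31 on Ta and 11.05 on Ti. It therefore does not measure how many such cells were present. This list includes Bst2, itself a member, and Irf8, which differed by -1.33 ± 0.35 (adjusted p = 0.0757) with every Ta array below every Ti array. Markers of T and NK cells, the cells that make interferon gamma, summed to 2230 to 4480 on Ta and 4370 to 4650 on Ti. Of 16 such markers 7 were tested, 2 with positive and 5 with negative differences at a median of -0.32. Cd3e, Cd3g, Lck, Ncr1, Klrd1, Prf1 and Cxcr3 were not well above background. The sum came mainly from the probes of Cd4 and Cd28. Cd4 read 11.43, 10.32 and 9.67 on Ta, in the order of the macrophage markers, and 11.51, 11.26 and 11.36 on Ti. Which cells gave the Cd4 signal was not tested. Cd2 was called higher, but was well above background on the 3 Ta arrays and no Ti array (0 of 3), so it was tested only through the group in which it was higher. Cd8a and Gzmb, at -2.45 ± 0.63 and -1.78 ± 0.37, had every Ta array below every Ti array without passing (adjusted p = 0.0728 and 0.0523). Gzmb was well above background on 1 Ta array and the 3 Ti arrays, so it too was tested through the group in which it was higher. The part of other cell types in the members' values was not tested.

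The rest of the pathway was read from a list of 132 further genes, of which 118 were on the array and 102 were tested. Of these, 3 rose and 3 fell (5.88% called, against 4.12% of all genes), and the median difference was 0.06. Most ligands were near background: of 9 on the array, 7 were well above background nowhere, among them Ifnb1 and Ifng. Ifna4 alone was tested (-0.22 ± 0.20) and was well above background on all 6 arrays. It read 6.49, 6.35 and 6.31 on Ta and 7.04, 6.28 and 6.48 on Ti. Ifnb1 read 2.35, 1.77 and 3.12 on Ta and 2.07, 1.59 and 1.76 on Ti, and Ifng read 2.03, 1.17 and 1.43 on Ta and 1.15, 1.61 and 1.46 on Ti. A difference in either ligand was not detectable here.

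The receptors and their kinases were expressed on every array, and none (0 of 13) of the tested genes of this group was called, with 1 higher and 1 lower at an unadjusted p under 0.05. Ifnar2 showed separated groups, at 10.49, 10.72 and 10.77 on Ta and 10.23, 10.34 and 10.13 on Ti (0.42 ± 0.11, adjusted p = 0.0729), while Ifnar1 overlapped at 0.21 ± 0.11, with a second probe at -0.09. Ifngr1 differed by -0.21 ± 0.13 and Ifngr2 by 0.03 ± 0.08. The kinases Jak1 and Tyk2 differed by 0.00 ± 0.09 and -0.25 ± 0.13. Jak1 had no clear sign and read 0.04 with quantile scaling, and Ifngr2 read -0.01 with median scaling. Both values were smaller in size than the SEs above. The gene that was lower at an unadjusted p was Irf8, a transcription factor of myeloid cells, which had the largest difference of the group, as given with the plasmacytoid dendritic cell markers, and whose second probe differed by -0.51. The feedback inhibitor Socs1 was well above background on 1 Ti array, so it was not tested.

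Beyond the receptors, Trim25, the ligase that activates RIG-I, rose by 0.38 ± 0.07 (adjusted p = 0.0488), and Zc3hav1, the antiviral RNA-binding protein ZAP, rose by 0.46 ± 0.09 (adjusted p = 0.0482). Casp4, an inflammatory caspase, differed by -0.86 ± 0.15 and so fell (adjusted p = 0.0453). A second probe of Trim25 differed by 0.56 and a second probe of Zc3hav1 by 0.38, in the same direction as the first. With median scaling Trim25, Zc3hav1 and the class I gene Tapbpl missed the threshold (adjusted p = 0.0587, 0.0504 and 0.0592). The other interferon targets, 39 tested, had a median of -0.02. Every Ta array lay above every Ti array in 10 (25.6%, against 19.5% of all genes) and below in 4 (10.3%, against 16.3%). In 3 the difference was at least 2-fold (5.18% of all genes), without a call: Ifitm1 at -1.48 ± 0.47, Ifi47 at -1.47 ± 0.35 and Epsti1 at -1.09 ± 0.34. The largest positive difference was 0.86, that of Ube2l6.

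The antigen presentation genes of the pathway lay on opposite sides. Of 19 MHC class I and peptide-loading genes tested, 18 differences were positive, with a median of 0.19. Every Ta array lay above every Ti array in 12 (63.2%, against 19.5% of all genes) and below in none (0 of 19). The members Psmb8, Psmb9 and Tap1, whose groups overlapped, are not among the 19. Of the genes with a further probe well above background on at least 3 arrays, RT1-S3 changed sign, from 0.07 to -0.95. Erap1 gave 0 and the others kept their sign. The 1 gene of the 19 that was called (5.26%, against 4.12% of all genes) was Tapbpl, a peptide editor. It rose by 0.57 ± 0.11 (adjusted p = 0.0482), and Nlrc5, the activator of class I genes, differed by 0.58 ± 0.12 (adjusted p = 0.0523). Several of these class I genes are near-identical copies, so their readings are not independent. Interferon gamma induces MHC class II genes through Ciita. The 8 tested genes of the MHC class II list, which holds Ciita itself and the cathepsin Ctss, had negative differences with a median of -1.50. In 7 of them every Ta array lay below every Ti array (87.5%, against 16.3% of all genes). Among these, RT1-Da was well above background on 1 Ta array and the 3 Ti arrays. It thus entered the test through the group in which it was higher. RT1-Bb and Ciita were well above background on 2 Ta arrays and the 3 Ti arrays. RT1-DMa and RT1-DMb, which load peptides onto class II, fell by 1.26 and 1.79 on the log2 scale (adjusted p = 0.0408 and 0.0441). The sum of macrophage markers was also lower on every Ta array than on any Ti array, as given earlier, and its part in the class II values was not tested. Leaving out any 1 array other than Ta replicate 1 or Ti replicate 2 left none (0) of the 6 pathway calls, and with slide row as a block there were likewise 0.

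**Figure D5:**
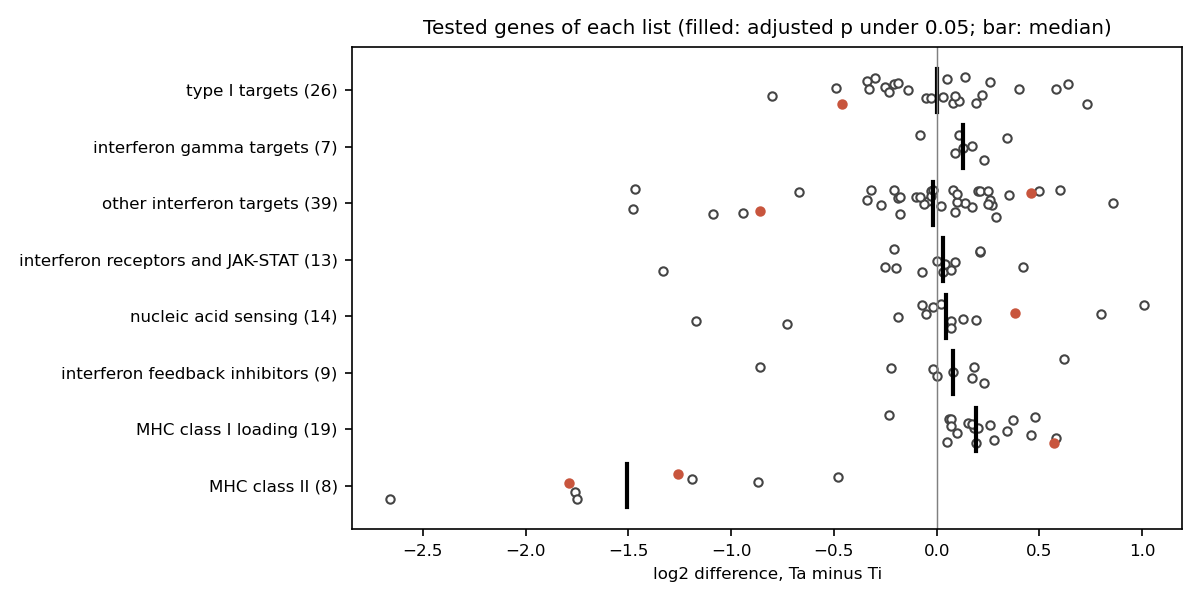
Log2 difference (Ta minus Ti, horizontal axis) of the tested genes in the member lists and the pathway lists, with the number of genes in brackets, filled points at an adjusted p under 0.05 and a bar at each median. The medians of the type I and interferon gamma targets lie at 0 and 0.13, that of the MHC class I list at 0.19 and that of the MHC class II list at -1.50.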

How the data were processed

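Per the file headers, the authors' deposited processed signal is a spot intensity on a linear scale that Agilent Feature Extraction corrected for background and spatial trend. The submitters' processing notes list Agilent Feature Extraction 12.0 and limma (no version). Each array's log2 signal was scaled to its 75th percentile over non-control spots, with the mean percentile added back. Outlier spots (0.58% to 0.84% of an array) were left out, and spots of 1 probe averaged. Probes well above background on at least 3 of 6 arrays were kept (25782 of 45598, of which 25774 had a value on every array), and the brightest probe stood for its gene, which gave 19755 genes. Names followed RefSeq (GRCr8) for 30650 probes, with the file's names for members. Values of Ta replicate 2 and Ti replicate 3 were deposited to 3 significant digits. The test was limma 3.58.1 in R 4.3.3 (lmFit, eBayes, two-sided, Benjamini-Hochberg), whose SE borrows from all genes. Tested on simulated data of 19755 genes with 200 changed, it recovered 18%, 61% and 90% of changes of 0.5, 1 and 2 (log2), with 8 false calls among 123, and 0 calls with no change.

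The members and lists were chosen with earlier results of these data known. Full values are given for members past the test, the 8 tested members with the largest differences, and Irf1, Irf7, Irf9, Stat2, Isg15, Cxcl9, Cxcl10 and Cxcl11. Of the pathway, called genes and a set of signalling genes are named, 1 of which is not reported here. Values of other genes were chosen after they were seen. Alternatives were other scalings, normexp (offset 50), other filters and probe rules, replicate and slide row blocks, trend and robust settings, array weights, no adjustment, and fits without each array.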

Additional observations from a re-analysis of the deposited data

How the results depend on the processing

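With 3 arrays a group, the number of calls moved with most settings. Over all genes 814 were called in the main setting, 2597 with normexp, 10244 with array weights, 2083 with trend and robust settings, 5916 at an unadjusted p, 0 without a filter and 0 with slide row as a block (3861 at an unadjusted p). The 527 higher and 287 lower calls became 419 and 361 with median scaling. Members called numbered 1 in the main setting and 2 with quantile scaling, 2 with median scaling, 5 with normexp, 2 among probes well above background on all arrays, 15 with array weights, 3 with trend and robust settings, 9 at an unadjusted p, and 0 without a filter or with slide row as a block. Pathway genes called numbered 6 in the main setting and 3 with median scaling, 24 with normexp, 11 among probes well above background on all arrays, 62 with array weights, 17 with trend and robust settings, 38 at an unadjusted p, and 0 without a filter or with slide row as a block. Leaving out 1 array gave 0 to 3229 calls over all genes, 0 to 5 among the members and 0 to 26 in the pathway, the highest without Ta replicate 1. Same-numbered cultures deviated together at correlations of 0.06, 0.13 and -0.18. No label says that the numbers pair the cultures, and 3 arrays a group are too few for these correlations to settle it. With a replicate block 8 genes, 0 members and 0 pathway genes were called (Isg20 -0.46, adjusted p = 0.0986). Jak1, at 0.00 ± 0.09 in the main setting and so without a clear sign, read 0.04 with quantile scaling and 0.01 with normexp. It read 0.01 to 0.03 in 4 of the fits that left out 1 array. Ifngr2, at 0.03 ± 0.08 in the main setting, turned to -0.01 with median scaling and to -0.02 and -0.01 without Ta replicate 1 and Ti replicate 1. These values of Jak1 and Ifngr2 were smaller in size than their SEs. Cxcl10 turned to -0.06 with slide row as a block. The cause of these changes was not tested. The sign held in every one of up to 19 settings that tested the member for 22 members and changed in at least 1 for 11. The median of the type I targets ran from -0.08 to 0.03 over these settings and that of the interferon gamma targets from 0 to 0.23. The signal over background limits what can be said of the 8 members not tested.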
